A study of Mus musculus with 200 samples.

Results

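Thbs4, Rpe65 and Apln, 3 of the 56941 genes in the deposited tables, were followed through all 200 mice of the series. They were chosen from 1 contrast, C57BL/6J mice 24 h after closed-head injury (CHI) against their sham mice, where 29 of 16577 tested genes (0.175%, and 0.404% in either direction) were lower at an adjusted p under 0.05 and 5 of those had a log2 fold change below -0.5. The values of that contrast are therefore a description and were not tested here. Rpe65 (-1.80) and Thbs4 (-0.97) stood at the far end of the 5, followed by the histone genes H2bc6 (-0.83) and H1f2 (-0.55), and Apln (-0.53) stood just inside the limit, with Utp14b (-0.43) just outside it.

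Each mouse received either CHI, a single impact to the intact skull, or sham surgery (anaesthesia and a scalp incision), and RNA of 1 hemisphere was sequenced 9, 24 or 72 h later. The 4 labelled strains were C57BL/6J (61 mice aged 4.4 to 6.8 months), IL-1R1 gKO (55 mice, 3.3 to 7.4 months), IL-1R1 eRestore (50 mice, 4.5 to 7.4 months) and IL-1R1 nRestore (34 mice, 3.3 to 7.67 months). At 9, 24 and 72 h the CHI groups held 15, 14 and 14 C57BL/6J, 13, 12 and 12 gKO, 12, 9 and 12 eRestore, and 6, 8 and 6 nRestore mice, and the sham groups held 6, 6 and 6, 6, 6 and 6, 6, 5 and 6, and 4, 5 and 5 mice in the same order. All mice came from 8 experiments, and the 9 h mice shared no experiment with the 24 and 72 h mice.

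The labels give the IL-1R1 strains no allele, driver or promoter. Il1r1, the gene of the interleukin-1 receptor, had a median of 5.21 CPM (read counts scaled to library size) in the C57BL/6J mice, 9.93 in the mice labelled IL-1R1 gKO, 7.76 in the eRestore mice and 9.38 in the nRestore mice. Gene-level counts were thus not lower in the mice labelled as knockout, and they do not separate exons, so the strain names are used here as labels only. Library totals lay between 14857985 and 57355676 estimated counts, with a median of 20258936.

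Thbs4 encodes thrombospondin 4, a secreted matricellular protein made in the brain mainly by astrocytes, known from the adult subventricular zone, and a member of the family that acts on synapse formation through calcium channel alpha2delta subunits. Rpe65 encodes the retinoid isomerohydrolase of the visual cycle, which turns retinyl esters into 11-cis-retinol in the retinal pigment epithelium. Apln encodes apelin, a secreted peptide ligand of the G-protein-coupled receptor encoded by Aplnr, known in vessels from endothelial tip cells. In bulk RNA, fewer cells of a type and less RNA per cell cannot be told apart.

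Thbs4 (ENSMUSG00000021702) lies on chromosome 13 from 92888095 to 92931501 on the minus strand of GRCm39, Rpe65 (ENSMUSG00000028174) on chromosome 3 from 159304802 to 159330958 on the plus strand, and Apln (ENSMUSG00000037010) on chromosome X from 47114019 to 47123775 on the minus strand. All 3 are protein coding, and no other annotated gene overlaps any of them. Across all mice Apln had the highest level per transcript length, with a median of 22.1 TPM (length-scaled transcript abundance), Thbs4 had 4.68 TPM and Rpe65 had 2.60 TPM. The rounded counts behind these values ranged from 294 to 2094 per mouse for Apln, from 46 to 939 for Thbs4 and from 7 to 221 for Rpe65, so counting error weighs most on Rpe65.

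That the 3 genes were lower together in the contrast that chose them was set by the choice. The bases before their first annotated exon are printed here as a description, 5′ to 3′ on the strand of the gene. They come from the RefSeq promoter table of GRCm38.p6. Each promoter window matched once on the gene's own chromosome and strand of GRCm39, and other chromosomes were not searched. The printed bases lie at chr13:92931502-92931576, chr3:159304568-159304801 and chrX:47123776-47123980. Capitals mark an E-box (CANNTG) or a CCAAT box.
Thbs4: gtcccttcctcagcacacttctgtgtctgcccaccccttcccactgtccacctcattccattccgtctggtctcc
Rpe65: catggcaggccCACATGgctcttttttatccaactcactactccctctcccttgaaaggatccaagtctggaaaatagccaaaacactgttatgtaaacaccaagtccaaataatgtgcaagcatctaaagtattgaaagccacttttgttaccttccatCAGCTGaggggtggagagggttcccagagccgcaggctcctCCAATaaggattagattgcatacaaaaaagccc
Apln: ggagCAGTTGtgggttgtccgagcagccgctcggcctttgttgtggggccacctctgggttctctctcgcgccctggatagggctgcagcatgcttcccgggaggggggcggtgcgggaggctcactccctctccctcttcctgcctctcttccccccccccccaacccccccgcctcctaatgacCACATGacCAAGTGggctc

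Short motifs were searched on both strands over 300 bases around each start, 250 before it and 50 after it. The E-box CANNTG was the only motif present in all 3 windows, with 2 matches for Thbs4, 3 for Rpe65 and 3 for Apln, and 72.3% of the 32851 promoters in the table held it. The CCAAT box occurred once, in Rpe65, against 37.4% of all promoters. The hypoxia core ACGTG (19.6% of promoters), the cyclic AMP response site TGACG (20.8%), the AP-1 site TGANTCA (7.81%), the glucocorticoid response site AGAACA (19%) and TATAAA (13.6%) had no match in these windows.

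In the C57BL/6J mice at 24 h, Thbs4 was at 2.40, 4.07 and 5.13 CPM (lowest, median, highest) in the 14 CHI mice and at 6.28, 7.77 and 8.84 CPM in the 6 sham mice. The groups did not overlap, as was true of 5 of the 16577 tested genes (0.0302%) in the lower direction. Rpe65 was at 0.376, 0.999 and 1.94 CPM in CHI mice and at 1.85, 3.51 and 5.23 CPM in sham mice, and 12 of 14 CHI mice lay below every sham mouse. Apln was at 21.8, 32.3 and 41.8 CPM in CHI mice and at 40.5, 46.0 and 54.9 CPM in sham mice, again with 12 of 14 CHI mice below every sham mouse.

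**Figure D1:**
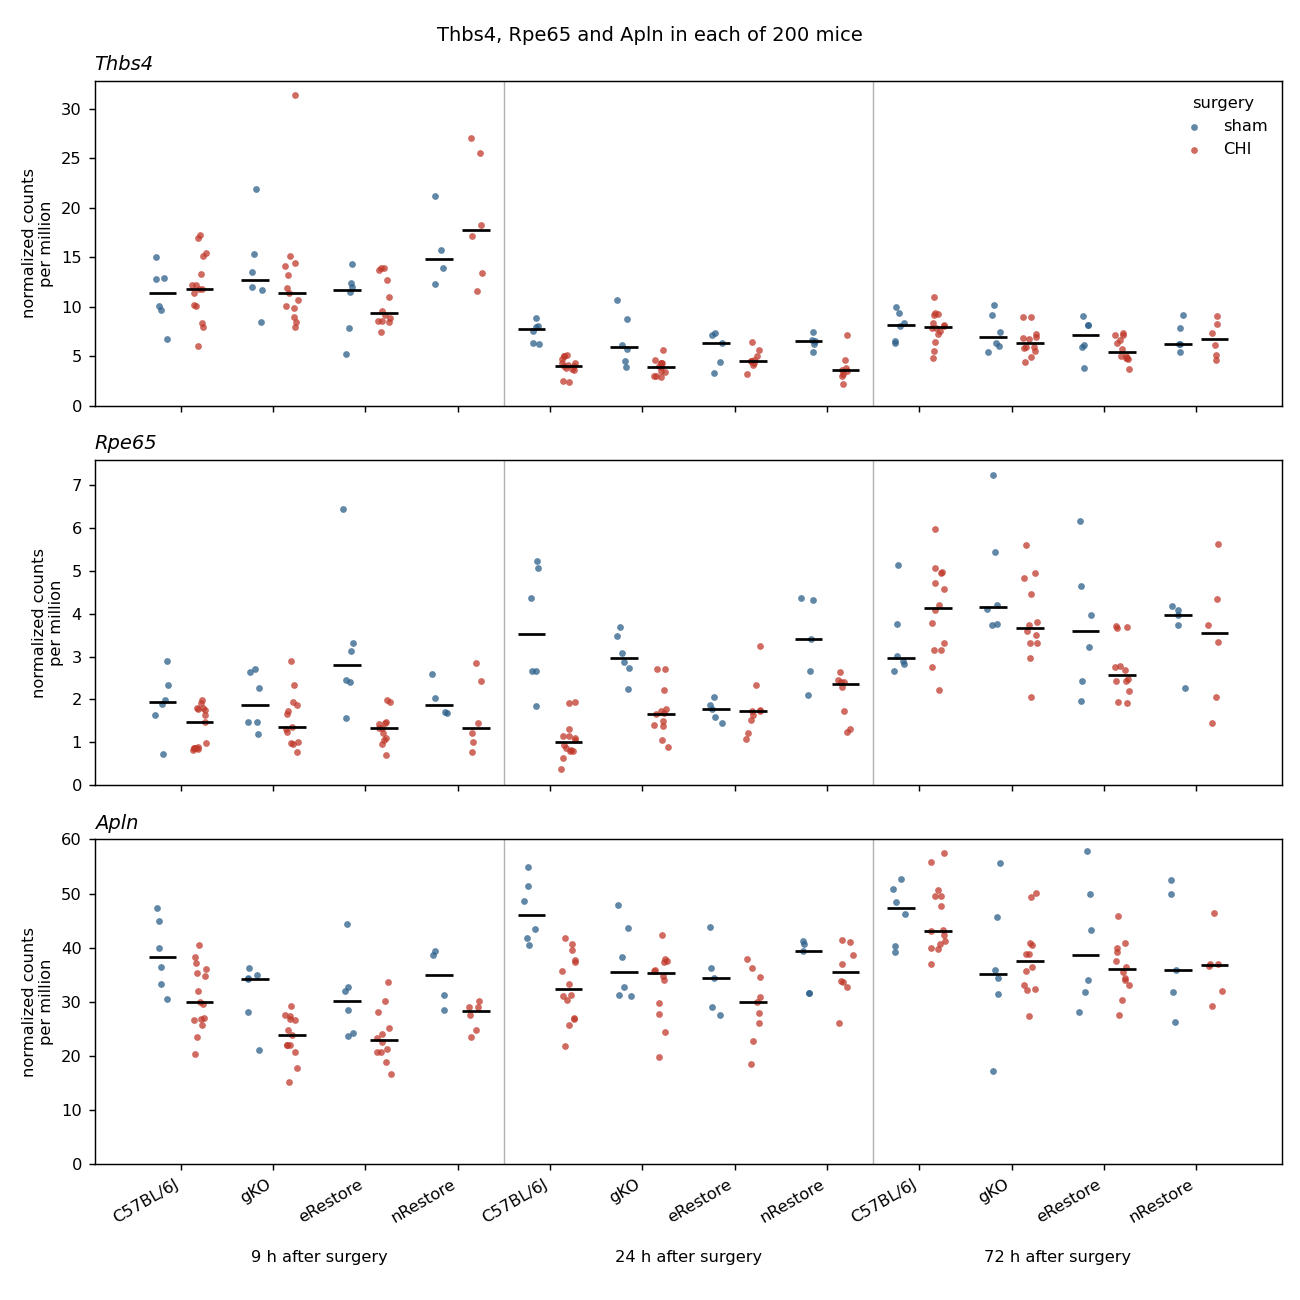
CPM (linear axes from 0) of Thbs4, Rpe65 and Apln in each of the 200 mice, by strain and time, with sham mice in blue, CHI mice in red and group medians as black lines. The Thbs4 points of both surgeries stand higher at 9 h than later, and at 24 h all 14 C57BL/6J CHI mice lie below every C57BL/6J sham mouse.

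The 3 IL-1R1 strains and the 9 and 72 h mice took no part in choosing the genes. In the 3 strains together at 24 h (29 CHI and 16 sham mice), Thbs4 fell by 0.67 on the log2 scale (SE 0.13), to 62.7% of sham, with an adjusted p of 0.0171 by edgeR's quasi-likelihood test with Benjamini-Hochberg adjustment over 18185 genes. Rpe65 (-0.58, SE 0.15, adjusted p = 0.09997) and Apln (-0.26, SE 0.09, adjusted p = 0.185) missed the threshold in the same fit. The share of all tested genes called lower there was 0.137%, and 7.1% were lower at an unadjusted p under 0.05, as all 3 genes were. Thbs4 ranked 5 by p among the 18185 genes.

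The call on Thbs4 ended under 5 of 27 alternatives, with the value between -0.42 and -0.82 over those 5. It ended with the experiment in place of age (-0.58, adjusted p = 0.0789), within strain and experiment (-0.60, adjusted p = 0.175), in experiment eIL-1-38 alone (-0.42, adjusted p = 0.522), in experiment NiL-1-24 alone (-0.82, adjusted p = 0.885) and without the 6 mice highest in choroid plexus markers (-0.62, adjusted p = 0.177). Over all 27 alternatives the adjusted p lay between 0.00147 and 0.885. With any 1 of the 16 sham mice left out the adjusted p lay between 0.00453 and 0.0452.

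By strain at 24 h, Thbs4 was at 2.94, 3.97 and 5.59 CPM in the 12 gKO CHI mice and at 3.90, 5.93 and 10.7 CPM in their 6 sham mice. All 12 lay below the sham median, and 5 lay below every sham mouse. In the 8 nRestore CHI mice Thbs4 was at 2.25, 3.57 and 7.12 CPM, and the 5 sham mice were at 5.45, 6.22, 6.58, 6.64 and 7.501 CPM. Of the 8, 7 lay below every sham mouse, and the remaining CHI mouse lay within the sham range. In the 9 eRestore CHI mice it was at 3.18, 4.54 and 6.40 CPM, and the 5 sham mice were at 3.27, 4.47, 6.31, 7.19 and 7.38 CPM. Of the 9, 8 lay below the sham median, and 8 lay within the sham range. The log2 fold changes were -0.86 in gKO (adjusted p = 0.0566), -0.70 in nRestore (adjusted p = 0.955, unadjusted p = 0.00777) and -0.35 in eRestore (adjusted p = 0.667) by edgeR's quasi-likelihood test, so no single strain passed. In gKO mice Thbs4 passed under 4 of 13 alternatives, with adjusted p from 0.00161 by DESeq2 to 0.257 with the experiment in place of age. The share of all genes called there was 0.0059% in gKO (1 gene, 1502 at an unadjusted p under 0.05, 84 by DESeq2 with gene-length offsets) and 0% in eRestore (1494 unadjusted, 55 by DESeq2) and nRestore (740 unadjusted, 3 by DESeq2).

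Rpe65 at 24 h was at 0.892, 1.67 and 2.72 CPM in gKO CHI mice and at 2.23, 2.98 and 3.69 CPM in gKO sham mice, and 10 of 12 CHI mice lay below every sham mouse. In nRestore mice it was at 1.24, 2.35 and 2.64 CPM after CHI, and the sham mice were at 2.10, 2.66, 3.41, 4.32 and 4.37 CPM. All 8 CHI mice lay below the sham median and 3 below every sham mouse. In eRestore mice the CHI values were 1.08, 1.72 and 3.24 CPM and the sham values 1.46, 1.58, 1.78, 1.86 and 2.07 CPM. Here the sham mice themselves were low, 2 CHI mice lay below all of them and 2 above all of them. The log2 fold changes were -0.76 in gKO (adjusted p = 0.246), -0.62 in nRestore (adjusted p = 0.955) and -0.10 in eRestore (adjusted p = 0.943).

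Apln at 24 h was at 18.6, 30.0 and 37.9 CPM in the 9 eRestore CHI mice, and the sham mice were at 27.6, 29.1, 34.4, 36.3 and 43.9 CPM. Of the CHI mice, 3 lay below every sham mouse. In gKO mice it was at 19.9, 35.3 and 42.3 CPM after CHI and at 31.2, 35.6 and 48.0 CPM in sham mice, with medians that nearly coincided. Within single experiments Apln differed by -0.34 on the log2 scale in gKO mice of NiL-1-24 (2 CHI and 4 sham mice) and of eIL-1-38 (5 and 2). In nRestore mice it was at 26.1, 35.4 and 41.5 CPM after CHI, and the sham mice were at 31.6, 31.7, 39.3, 40.7 and 41.3 CPM, with 6 of 8 CHI mice within the sham range. The log2 fold changes were -0.49 in eRestore (adjusted p = 0.322), -0.29 in gKO (adjusted p = 0.550) and 0.00 in nRestore (adjusted p = 0.999).

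The order of the strains thus was not the same for the 3 genes, but no difference of the CHI effect between 2 IL-1R1 strains at 24 h passed the threshold for any of them. The differences farthest from 0 were those of Rpe65, -0.82 (95% interval -1.43 to -0.21) for gKO minus eRestore and 0.71 (0.05 to 1.36) for eRestore minus nRestore, and over the 9 differences the adjusted p lay above 0.99 by edgeR's quasi-likelihood test, which called 0 of 18185 genes in each pair of strains (470 to 752 at an unadjusted p under 0.05, and 2 to 4 by DESeq2). The effect in males minus that in females was 0.25 for Thbs4 (adjusted p = 0.882), -0.16 for Rpe65 (adjusted p = 0.940) and -0.21 for Apln (adjusted p = 0.849).

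**Figure D2:**
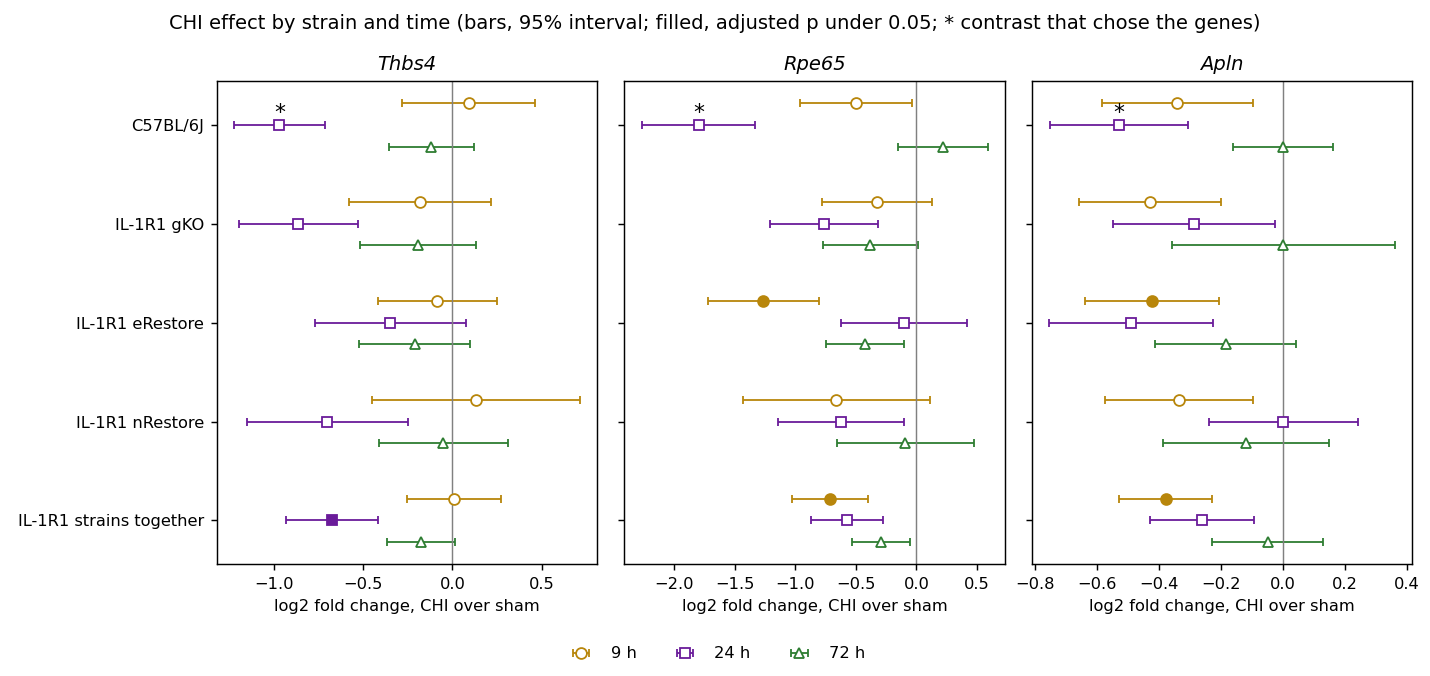
Log2 fold change of CHI over sham for Thbs4, Rpe65 and Apln in each strain and in the 3 IL-1R1 strains together, at 9 h (circles), 24 h (squares) and 72 h (triangles), with 95% intervals and filled symbols where the adjusted p was under 0.05. In the strains together Thbs4 is at 0.01, -0.67 and -0.17, while Rpe65 and Apln are lowest at 9 h; starred C57BL/6J values at 24 h chose the genes.

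CHI and sham mice were spread unevenly over experiment, age and sex. At 24 h experiment NiL-1-21 held female CHI mice of all 3 IL-1R1 strains but no IL-1R1 sham mice. IL-1R1 sham mice of 24 h were at most 5.3 months old, and CHI mice reached 7.4 (gKO, eRestore) and 7.2 months (nRestore). Females were 8 of 12 gKO, 6 of 9 eRestore and 7 of 8 nRestore CHI mice, and 3 of 6, 2 of 5 and 2 of 5 sham mice. The pooled and per-strain 24 h values above include all these mice. The 24 h values were therefore also compared within strain and experiment. Both surgeries were present in 4 such strata, with 16 CHI and 15 sham mice in all. The weighted mean difference of log2(CPM + 0.5) was -0.53 for Thbs4 (p = 0.00119), -0.48 for Rpe65 (p = 0.00143) and -0.33 for Apln (p = 0.00315) in two-sided exact permutation tests over 5000940 arrangements, unadjusted for the 3 genes tested. In these strata edgeR's test across all genes gave Thbs4 an adjusted p of 0.175, and neither Rpe65 nor Apln passed there. Over all 27 alternatives to the pooled 24 h fit, the adjusted p of Apln was 0.104 or more. The share of all genes that reach such permutation p was not computed.

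Thbs4 was lower after CHI in each of the 4 strata, with differences of -0.996 in gKO mice of experiment NiL-1-24, -0.55 in nRestore mice of the same experiment, -0.53 in gKO mice of experiment eIL-1-38 and -0.22 in eRestore mice of eIL-1-38. Apln was also lower in all 4, from -0.14 in nRestore to -0.51 in eRestore mice. Rpe65 was lower in 3, from -0.58 to -0.85, and level in eRestore mice (-0.01). The strata hold 2 to 5 mice per surgery, and their differences from each other were not tested.

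These strata do not balance sex. In gKO mice of NiL-1-24, both CHI mice were male (2.94 and 3.00 CPM of Thbs4), and the sham mice were 2 males (3.90 and 4.54 CPM) and 2 females (8.75 and 10.7 CPM), so the difference of -0.996 rested on the female sham mice and was -0.44 among the males. Within strain, experiment and sex, an alternative chosen after the data were seen (16 CHI and 13 sham mice in 7 strata), the differences were -0.44 for Thbs4 (p = 0.00274), -0.47 for Rpe65 (p = 0.00432) and -0.35 for Apln (p = 0.00455) in two-sided exact permutation tests over 172800 arrangements. In each of the 3 genes 6 of the 7 strata were negative. These strata held 1 to 3 mice per surgery, and the share of all genes with as many negative strata was not computed.

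**Figure D3:**
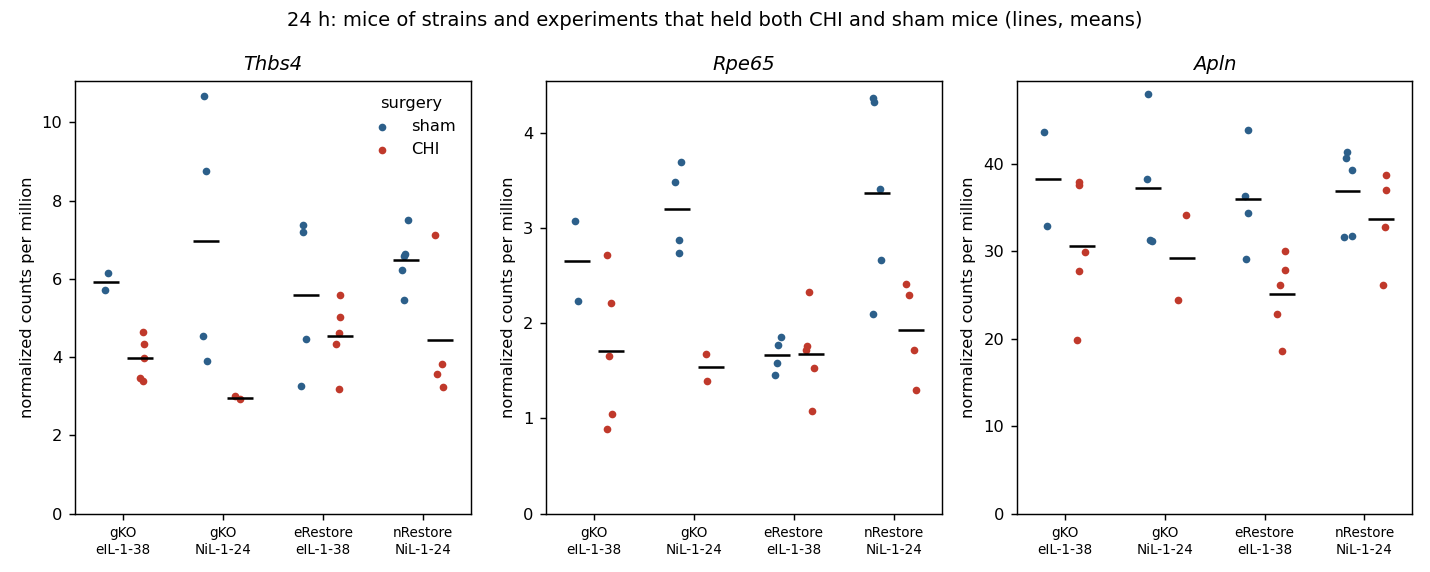
CPM (linear axes from 0) of the 3 genes at 24 h in the mice of IL-1R1 strains and experiments that held both CHI (red) and sham (blue) mice, with means as black lines. Mean Thbs4 and Apln are lower after CHI in all 4 strata, and Rpe65 in all but the eRestore mice.

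At 9 h the genes parted. Thbs4 did not differ detectably between CHI and sham mice of the 3 strains together (0.01, 95% interval -0.25 to 0.27, adjusted p = 0.974), and 18 of 31 CHI mice lay below the sham median of their own strain. Rpe65 fell by 0.71 (SE 0.16, adjusted p = 0.00167) and Apln fell by 0.38 (SE 0.08, adjusted p = 0.000502), with 26 and 30 of 31 CHI mice below their own sham median. Both calls held under all 9 alternatives, with adjusted p up to 0.0182 for Rpe65 and 0.00121 for Apln. These 9 were fewer kinds of check than at 24 h. Fits within strain and experiment, in single experiments or with a sham mouse left out were not run for the strains together at 9 h. At this time 6.03% of the 18295 tested genes were called lower.

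The C57BL/6J mice at 9 h, which the choice of genes did not use, had log2 fold changes of -0.50 for Rpe65 (adjusted p = 0.168), -0.34 for Apln (adjusted p = 0.0704) and 0.09 for Thbs4 (adjusted p = 0.818), where 7% of 16967 genes were called lower and 14.1% in either direction. Apln was at 20.4, 30.0 and 40.4 CPM in the 15 CHI mice and at 30.5, 38.2 and 47.3 CPM in the 6 sham mice. Of the CHI mice, 8 lay below every sham mouse. Rpe65 was at 0.825, 1.47 and 1.98 CPM after CHI, all 15 values within the sham range of 0.736 to 2.91 CPM.

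Among single strains at 9 h, both genes passed in the eRestore mice, where 3.24% of genes were called lower and 7.34% in either direction. Rpe65 was at 0.698, 1.33 and 1.99 CPM in the 12 CHI mice and at 1.56, 2.79 and 6.44 CPM in the 6 sham mice (-1.26, SE 0.23, adjusted p = 0.00323), and 10 of 12 CHI mice lay below every sham mouse. The highest sham mouse lay far from the next, at 3.32 CPM, and no fit without it was run. Apln was at 16.6, 23.0 and 33.6 CPM after CHI and at 23.7, 30.2 and 44.4 CPM in sham mice (-0.42, SE 0.11, adjusted p = 0.0258), with 7 of 12 CHI mice below every sham mouse. That call on Apln ended with the experiment in place of age (adjusted p = 0.160) and without covariates (adjusted p = 0.106).

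In the gKO mice at 9 h, Apln was at 15.3, 23.8 and 29.2 CPM after CHI and at 21.1, 34.3 and 36.2 CPM in sham mice, and all 13 CHI mice lay below the sham median (-0.43, adjusted p = 0.124). In nRestore mice the 6 CHI values of Apln ran from 23.6 to 30.2 CPM, and the sham mice were at 28.5, 31.2, 38.7 and 39.5 CPM (-0.33, adjusted p = 0.250). The Apln fold changes of the 4 strains at 9 h thus lay between -0.33 and -0.43. Rpe65 was at -0.33 in gKO (adjusted p = 0.676) and -0.66 in nRestore mice (adjusted p = 0.502). Of all genes, 0.126% were called lower and 0.199% in either direction in gKO mice, and 0.262% and 0.608% in nRestore mice.

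The CHI effect at 24 h minus that at 9 h, tested in the 90 CHI and 49 sham mice of the IL-1R1 strains, was -0.61 for Thbs4 (SE 0.18, adjusted p = 0.0288, range over 4 alternatives 0.0159 to 0.0480) by edgeR's quasi-likelihood test, which called 1.93% of 19674 genes lower and 4.23% in either direction. It was 0.07 for Rpe65 (95% interval -0.35 to 0.49, adjusted p = 0.926) and 0.17 for Apln (-0.07 to 0.41, adjusted p = 0.579). Since the times came from different experiments, and the 9 h tissue was taken at another time of day than the 24 and 72 h tissue, time, experiment and time of day cannot be told apart in these differences.

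At 72 h none of the 3 genes passed in any strain or in the strains together, where the values were -0.17 for Thbs4 (adjusted p = 0.869), -0.29 for Rpe65 (adjusted p = 0.760) and -0.05 for Apln (adjusted p = 0.947). In C57BL/6J mice the values were -0.12, 0.22 and 0.00. In the strains together 53 genes (0.295%) were called at this time, 52 of them higher and 1 lower (0.00557%). The shares called in single strains were 0.00605% in eRestore and 0.0121% (0.00606% lower) in nRestore mice, and 0% in gKO and C57BL/6J mice. Rpe65 was at 2.23, 4.14 and 5.98 CPM in the 14 C57BL/6J CHI mice at 72 h and at 2.66, 2.96 and 5.13 CPM in the 6 sham mice, and 12 of the 14 lay within the sham range. The effect at 24 h minus that at 72 h was -0.43 for Thbs4 (unadjusted p = 0.0194, adjusted p = 0.9998), -0.33 for Rpe65 and -0.15 for Apln, in a test that called 1 of 19674 genes (0.00508%).

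The levels themselves differed between the times in both surgeries. The 9 h mice came from other experiments and were taken at another time of day, so time, experiment and time of day cannot be told apart in their levels. Median Thbs4 over the sham mice of the 4 strains was 12.3 CPM at 9 h, 6.47 at 24 h and 7.48 at 72 h, and over the CHI mice 11.8, 4.08 and 6.81. The 9 h median was the highest of the 3 times in every strain and surgery, led by the nRestore mice with 17.7 CPM after CHI and 14.8 CPM in sham mice. The gKO CHI mice at 9 h held the highest value of the series, 31.3 CPM, against a group median of 11.4.

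Rpe65 ran the other way over all strains, with sham medians of 2.15, 2.70 and 3.76 CPM and CHI medians of 1.35, 1.53 and 3.55 CPM at 9, 24 and 72 h. Not every strain shared this order. Sham medians were 1.93, 3.51 and 2.96 CPM in C57BL/6J and 2.79, 1.78 and 3.59 CPM in eRestore mice, and C57BL/6J CHI medians were 1.47, 0.999 and 4.14 CPM. The sham medians of gKO and nRestore mice and the CHI medians of all 3 IL-1R1 strains rose at each time. Apln had sham medians of 33.8, 39.9 and 40.4 CPM and CHI medians of 26.6, 33.9 and 39.0 CPM. The SDs over sham mice were 1.13, 1.13 and 1.25 CPM for Rpe65 and 6.88, 7.52 and 10.7 CPM for Apln, and those over CHI mice were 0.542, 0.653 and 1.12 CPM and 5.74, 6.19 and 7.13 CPM. The sham medians of neighbouring times differed by less than these sham SDs, which describe the spread of single mice and are not a test. The 24 h values of both surgeries include the C57BL/6J mice that chose the genes, and no pooled median was tested between times.

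Experiment eIL-1-38 held sham mice of 24 and 72 h in C57BL/6J, gKO and eRestore mice, and the gKO and eRestore mice, which the choice of genes did not use, were compared within strain (a comparison chosen after the data were seen). Rpe65 was at 2.00 ± 0.592 CPM (SD, n = 6) at 24 h and 3.86 ± 1.02 CPM (SD, n = 8) at 72 h, a difference of -0.73 on the log2 scale (p = 0.000952 in a two-sided exact permutation test, the smallest that the 1050 arrangements can give). Thbs4 (-0.31, p = 0.194) and Apln (0.06, p = 0.791) did not pass the same exact permutation test. With the C57BL/6J sham mice of eIL-1-38 added (9 mice at 24 h and 11 at 72 h), the Rpe65 difference was -0.61. The 1 C57BL/6J sham mouse of each time in experiment NiL-1-21 ran the other way, with 5.23 CPM of Rpe65 at 24 h and 2.91 CPM at 72 h. In the gKO and eRestore mice of eIL-1-38, the 24 h sham level against which the CHI mice are set was thus lower than the 72 h level.

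Between strains, the sham mice of 9 and 72 h gave no call for any of the 3 genes. Apln was lower in all 3 IL-1R1 strains than in C57BL/6J sham mice, by -0.37 in gKO (unadjusted p = 0.00395, adjusted p = 0.149 by edgeR's quasi-likelihood test), -0.27 in eRestore (adjusted p = 0.371) and -0.24 in nRestore mice (adjusted p = 0.343). Thbs4 lay between -0.16 and 0.08 and Rpe65 between 0.12 and 0.42, with adjusted p of 0.421 or more. The shares of all genes called lower were 0.718%, 0.921% and 1.99% in gKO, eRestore and nRestore sham mice, and 1.36%, 1.72% and 3.48% were called in either direction.

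The wider pathways were read in the 3 IL-1R1 strains together. Of 20 tested thrombospondins and partners, 1 rose and 1 fell at 9 h and 0 passed at 24 h, where 0.231% of all genes were called in either direction (12.3% at 9 h and 0.295% at 72 h). Sdc4, a cell-surface heparan sulfate proteoglycan, rose by 0.37 at 9 h, and Cacna2d3, an alpha2delta subunit, fell by 0.22. At 24 h, when Thbs4 was at -0.67, its family members Thbs1 (-0.11) and Thbs2 (0.03) did not pass, and the list's median was 0.04 against 0.00 over all genes.

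Of 23 tested genes of retinoid handling and retinoic acid receptors, 3 fell and 0 rose at 9 h, a count near the 12.3% of all genes called in either direction, with a list median of -0.17. These were the receptors Rxrg (-0.82, adjusted p = 0.0236) and Rarb (-0.37, adjusted p = 0.0356) and the retinaldehyde-binding protein gene Rlbp1 (-0.22, adjusted p = 0.0362). At 24 h 0 passed, with Rlbp1 at -0.18 (adjusted p = 0.215) and the list's median at -0.02. Of 24 tested genes of apelin signalling and angiogenic endothelium at 9 h, 3 rose and 5 fell. Plaur, the urokinase receptor (0.85), the peptide hormone gene Adm (0.50) and Igfbp3 (0.31) rose, while Mme, a peptidase (-0.48), the chemokine gene Cxcl12 (-0.39), the endothelial receptors Tie1 (-0.37) and Tek (-0.25) and the netrin receptor Unc5b (-0.34) fell. The apelin receptor gene Aplnr was too low to be tested at 9 h and was at 0.10 (SE 0.48) at 24 h, where 0 of 25 genes of this list passed, as at 72 h.

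**Figure D4:**
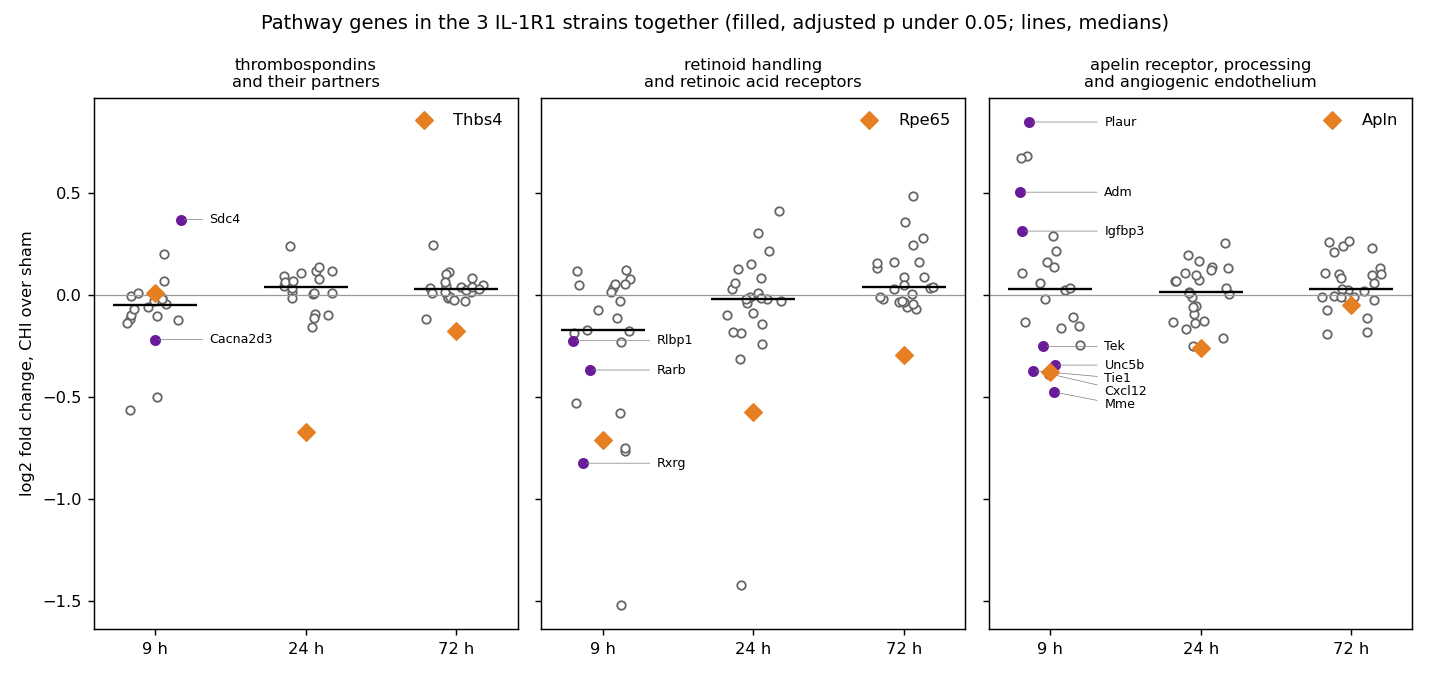
Log2 fold change of CHI over sham in the 3 IL-1R1 strains together for the tested genes of 3 pathway lists at 9, 24 and 72 h, with filled and named points where the adjusted p was under 0.05, black lines at the list medians and orange diamonds for Thbs4, Rpe65 and Apln. No listed gene passed at 24 h, where Thbs4 and Rpe65 lie at -0.67 and -0.58.

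Markers of cell types that could carry these genes were read beside them. The 10 marker genes of pigment epithelium and pigment cells summed to medians of 2.22 TPM in CHI and 2.11 TPM in sham mice of the 3 strains at 24 h (1.03 to 4.36 and 1.44 to 3.24 TPM), with Mlana and Rgr at a median of 0. At 9 h, where Rpe65 fell, they summed to medians of 1.87 TPM in CHI and 2.35 TPM in sham mice (0.970 to 5.96 and 1.33 to 7.52 TPM). All 4 of the 10 that could be tested there were negative (median -0.44 on the log2 scale), and 1 fell. The part of these markers in the Rpe65 result was not tested. The 9 endothelial markers summed to 378 TPM (334 to 416) in CHI and 360 TPM (265 to 440) in sham mice at 24 h, and the 10 astrocyte markers to 1749 TPM (1479 to 1884) and 1753 TPM (1547 to 1846). None of these 3 lists held a gene that passed at 24 h. At 9 h, when Rpe65 and Apln were called, 4 of 10 astrocyte markers rose (median 0.06), and 2 of 9 endothelial markers rose and 1 fell (median 0.01). Of 8 microglia markers 3 fell (7 negative, median -0.16), of 8 oligodendrocyte markers 1 fell (8 negative, median -0.12), and of 8 neuron markers 0 passed. Of all genes, 6.03% were called lower at 9 h and 12.3% in either direction. The part of these lists in the results was not tested. Of the 14 markers of the subventricular zone and rostral migratory stream, 0 passed at 24 h and their median log2 fold change was 0.07.

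The 13 choroid plexus markers summed to between 144.5 and 2650 TPM in CHI and between 166.7 and 4085 TPM in sham mice at 24 h, with none at 0, and all 13 had negative fold changes, a median of -0.80, with 0 calls. At 9 h all 13 were negative as well, with a median of -1.15 and 0 calls, and sums of 149.1 to 3328 TPM in CHI and 176.2 to 8490 TPM in sham mice. Without mice over 500 TPM the 24 h values were -0.62 for Thbs4 (adjusted p = 0.177), -0.53 for Rpe65 (adjusted p = 0.298) and -0.26 for Apln (adjusted p = 0.395), in a fit by edgeR that called 0 genes. At 9 h the same step left Rpe65 at -0.68 (adjusted p = 0.0182) and Apln at -0.45 (adjusted p = 0.00121). Also at 9 h, 6 of 8 fibroblast markers fell, with a median of -0.71, where 6.03% of all genes were called lower and 12.3% in either direction. The fibroblast markers summed to 20.0 to 79.8 TPM in CHI and 21.5 to 215 TPM in sham mice, and their part in the results was not tested. Negative at 24 h, again with 0 calls, were also all 5 erythrocyte markers (median -0.77, sums of 5.83 to 552 TPM in CHI and 19.5 to 328 TPM in sham mice) and all 5 tested cerebellum markers (median -0.46, sums of 14.3 to 39.7 and 16.6 to 59.3 TPM, with Barhl1 at a median of 0 in CHI mice). Their part in the results was not tested. At 9 h all 5 erythrocyte markers were positive (median 1.60, 0 calls). Among all marker lists, Hcrt, a hypothalamic neuropeptide (4.95, adjusted p = 0.0171), was the only gene called at 24 h.

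After the mean of each of the 24 groups was subtracted, Pearson's r over the 200 mice was 0.02 for Thbs4 with Rpe65, 0.08 for Thbs4 with Apln and 0.26 for Rpe65 with Apln. By likeness to Rpe65, Apln ranked 224 of 16059 genes and Thbs4 ranked 6965. With the mean of the marker lists, Apln had r = 0.49 with astrocyte, 0.34 with oligodendrocyte, 0.29 with microglia and -0.34 with neuron markers, and -0.01 with endothelial markers. Rpe65 had 0.34 with microglia, 0.24 with astrocyte and -0.24 with neuron markers, and 0.0032 with the 1 pigment marker high enough to be read. Thbs4 had no value farther from 0 than 0.18, with oligodendrocyte markers. These values share libraries, depth and dissection and are descriptions.

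Among 16059 genes, those most like Apln were Akt2 (r = 0.70), Trp53inp2 (0.66), the astrocyte potassium channel gene Kcnj10 (0.63), Acsl6 (0.62) and Sfxn5 (0.61). Most like Rpe65 were S1pr1, a sphingosine 1-phosphate receptor (0.44), Lix1 (0.43), Plpp3, a lipid phosphatase (0.42), Ugp2 (0.41) and Lxn (0.38). Most like Thbs4 were Pip4k2a (0.44), Pnpla7 (0.39), Cpox (0.38), Prrg1 (0.37) and Cplx3 (0.37), and of the 15 genes only Pnpla7, a lysophospholipase, also passed at 24 h in the 3 strains together (-0.32, adjusted p = 0.0456).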

How the data were processed

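RNA of 1 hemisphere per mouse was read from poly(A)-selected paired-end libraries. The authors aligned reads to GRCm39 with STAR and quantified genes with Salmon through nf-core/rnaseq; the annotation release and strandedness are not given in the sources used here. The authors deposited estimated counts, not normalized, and TPM values, scaled for transcript length and library size. Groups came from the sample labels. Reads carry no molecular identifiers, so counts are not independent molecules. No pair of mice had identical counts (0 pairs).

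The estimated counts, rounded to whole numbers, were fitted by edgeR 4.0.16 under R 4.3.3 (TMM factors, robust quasi-likelihood fit, sex and age as covariates, strain too where strains were fitted together), keeping genes that reached 10 counts in a number of mice equal to the smallest group, with Benjamini-Hochberg adjustment over all genes tested. Sex was dropped for IL-1R1 nRestore at 72 h, where all mice were male. SEs came from the F statistics, and 95% intervals are 1.96 SE to either side. CPM values are TMM-normalized over all 200 mice. Within strain and experiment, log2(CPM + 0.5) was compared by exact permutation. Each sample is a separate mouse. Alternatives were DESeq2 1.42.0 with and without gene-length offsets, RLE factors, other count filters, other covariates and leaving out each sham mouse, and those added after the data were seen were single experiments, added C57BL/6J mice, sex strata and the choroid plexus limit. The fits were also run on simulated data, for the 3 IL-1R1 strains together and for eRestore mice, both at 24 h only. The outcome of these runs is not reported here. Promoters were searched for motifs in Python 3.11.15.

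The 3 genes and the lists were chosen with earlier results of these data known. Named genes are the 3, list members that passed at 24 h or define a list, the 5 genes most correlated with each of the 3, Il1r1 and the neighbours of the limit of 0.5; list members that passed at 9 h and Thbs1, Thbs2, Aplnr and Rlbp1 at 24 h were added after their values were seen.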

Additional observations from a re-analysis of the deposited data

Results flagged for a closer look

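In the IL-1R1 eRestore sham mice at 9 h, 1 mouse had 6.44 CPM of Rpe65, far from the next highest at 3.32 CPM. In the IL-1R1 nRestore sham mice at 72 h, 1 mouse had 2.26 CPM of Rpe65, far below the next at 3.74 CPM, with the highest at 4.17 CPM. Dixon's test was applied to 48 combinations of gene and group, and chance flags about 1 in 20. The CHI effect on Thbs4 differed between 24 and 9 h in the IL-1R1 strains by -0.61 (adjusted p = 0.0288, edgeR's quasi-likelihood test).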

How the results depend on the processing

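No paired analysis was possible because the labels give no replicate numbers shared between groups. Of the values for the 3 genes under the alternatives, 558 kept their direction and their side of the threshold, 18 changed sign, 10 passed only under the alternative and 7 were lost. Where not stated in the text the cause was not tested. The 558 include refits of the C57BL/6J contrast at 24 h, 13 for Thbs4, 12 for Rpe65 and 13 for Apln. That contrast chose the genes, so its direction was set by the choice, and no side of the threshold was read there. Values that passed in neither fit also count as kept. Values that changed sign were near 0. Apln in C57BL/6J at 72 h was -0.00041 with DESeq2, -0.00031 with RLE factors, -0.0025 with 10 counts in every mouse, -0.0235 without covariates and -0.0037 with the experiment in place of age. Apln in nRestore at 24 h was -0.0027, -0.0481 and -0.0847 under the last 3 of these, and ran from -0.0899 to 0.11 with 1 sham mouse left out. Rpe65 in eRestore at 24 h without covariates was 0.0281, Thbs4 in eRestore at 9 h with the experiment was 0.0192, and the Thbs4 difference of gKO minus nRestore without covariates was -0.0316. Thbs4 in the 3 strains at 9 h was -0.0047 with length offsets, -0.0183 with the experiment and -0.0643 without mice high in choroid plexus markers, and in nRestore it ran from -0.0488 to 0.48 at 9 h and from -0.14 to 0.0740 at 72 h with 1 sham mouse left out. Calls gained with DESeq2 were Apln at 9 h in C57BL/6J (-0.34) and gKO (-0.43) and at 24 h in eRestore (-0.49), Thbs4 in gKO at 24 h (-0.86) and Rpe65 in the 3 strains at 24 h (-0.58). Thbs4 in gKO at 24 h also passed with length offsets (-0.76, adjusted p = 0.0184) and without a filter (-0.86, adjusted p = 0.0385), and ran from -0.94 to -0.73 with 1 sham mouse left out, passing without sham replicate 1 (adjusted p = 0.0393). Rpe65 in the 3 strains at 24 h also passed without covariates (-0.54, adjusted p = 0.0438) and ran from -0.62 to -0.53 with 1 sham mouse left out, passing without nRestore sham replicate 2 (adjusted p = 0.0482). Calls lost were Apln in eRestore at 9 h without covariates (-0.39) or with the experiment (-0.33), and Thbs4 in the 3 strains at 24 h with the experiment (-0.58), within strain and experiment (-0.60), in eIL-1-38 (-0.42) or NiL-1-24 alone (-0.82), and without mice high in choroid plexus markers (-0.62). The number of genes called at 24 h in the 3 strains was 42 and ran from 0 in either single experiment to 104 with DESeq2 (9 to 95 with 1 sham mouse left out), and in C57BL/6J at 24 h it was 67 and ran from 17 without sham replicate 1 to 333 without a filter. It was 33 in gKO at 9 h and 218 with DESeq2, 102 in nRestore at 9 h and between 12 and 806, 1222 in eRestore at 9 h and between 736 and 1991, 2258 in the 3 strains at 9 h and 4483 with C57BL/6J mice added, and 53 at 72 h and 130 with them added. Counts near 0 rose most under alternatives, to at most 41 from 0 in C57BL/6J at 72 h, over 100 from 1 in gKO, 93 from 0 in eRestore and 5 from 0 in nRestore at 24 h, 16 from 1 in eRestore and 11 from 2 in nRestore at 72 h, 12 from 1 for 24 minus 72 h, and 4 from 0 for strain pairs and for sex. Depth limits Rpe65 most, with as few as 7 counts in a mouse.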
